A study of Mus musculus with 6 samples.

Results

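Trem2, Spp1, Gpnmb, Cd9, Fabp5, Lgals3, Apoe and Lpl are 8 genes that mark lipid-associated macrophages in other tissues, and they were followed here through the cells of the mouse mitral valve. They were taken by symbol from the gene lists of the deposited tables, which hold 31053 genes, and all 8 had UMIs (unique molecular identifiers, each standing for 1 captured RNA molecule). The data are droplet single-cell RNA counts from 6 libraries, 1 for each of 2 genotypes at 3, 8 and 25 weeks of age. The K/B.g7 libraries are labelled inflamed and the B.g7 libraries control. As background, both strains carry the g7 class II haplotype, and K/B.g7 mice have in addition a transgenic T cell receptor, KRN, and develop antibody-driven arthritis with inflammation of the mitral valve. Live single cells were sorted by flow cytometry after enzymatic digestion of the valves and lysis of red cells. How many mice each library pools is not given in the sources used here, so that every p-value below speaks of the spread among 6 libraries, which may be partly technical.

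As background, macrophages that take up lipid, in plaques and in fat, switch on a shared gene programme. TREM2 is a surface receptor for lipids and lipoproteins that signals through the adaptor TYROBP. Osteopontin (Spp1), galectin-3 (Lgals3), apolipoprotein E (Apoe) and lipoprotein lipase (Lpl) are secreted: a matrix phosphoprotein, a sugar-binding lectin, a lipoprotein component that LXR induces, and the enzyme that frees fatty acids from triglyceride-rich lipoproteins. GPNMB is a glycoprotein of lysosomes and melanosomes, CD9 a tetraspanin of the plasma membrane and vesicles, and FABP5 a cytosolic carrier of fatty acids. On GRCm38, in the GENCODE annotation, the genes lie on 7 chromosomes: Trem2 at chr17:48346401-48354147, Spp1 at chr5:104435118-104441050, Gpnmb at chr6:49036546-49070929, Lgals3 at chr14:47367751-47386160, Fabp5 at chr3:10012548-10016607 and Lpl at chr8:68880491-68907448 on the plus strand, and Cd9 at chr6:125460266-125494791 and Apoe at chr7:19696109-19699188 on the minus strand. Most of the 8 are also made by cells other than macrophages, so their levels in fibroblast-like cells were set beside those in myeloid cells.

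The libraries held 58351 barcodes with 15196750 to 69152541 UMIs each, and 48323 cells were used, with a median of 2872 to 5612 UMIs a cell. Cells were clustered with the 8 genes left out, and clusters were named from marker lists. The macrophage-like class held 453 cells: K/B.g7 valves gave 48, 210 and 58 of them at 3, 8 and 25 weeks, whereas B.g7 valves of those ages gave 23, 57 and 57. The interstitial fibroblast-like class held 37610 cells. All 12 macrophage markers had UMIs in the macrophage-like class of every library, and their summed level in the fibroblast-like class was 0.0538% to 0.489% of that in the macrophage-like class. The summed fibroblast markers in macrophage-like cells stood at 3.71% to 11.5% of their fibroblast level. Libraries shared between 6 and 73 barcodes in pairs. The B.g7 library of 8 weeks stood apart: endothelial-like cells were 22.1% of its cells, against 2.46% to 5.53% in the other 5 libraries, fibroblast-like cells were 65.5%, against 75.7% to 84.0%, and 3.89% of its cells had a UMI of a Y-linked gene, against 25.3% to 40.6% in the K/B.g7 libraries and 26.2% and 27.4% in the other B.g7 libraries. The labels give no sex, and the part of these differences in the values of that library was not tested.

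Levels below are in CPM, the UMI count of a gene scaled to one common library total, taken over the summed UMIs of all cells of a class in 1 library. Of the 8 genes, Trem2, Lgals3 and Spp1 were higher in macrophage-like than in fibroblast-like cells and Cd9 and Lpl were lower, by edgeR's quasi-likelihood test with library as a block and Benjamini-Hochberg adjustment over 13254 genes. That is 3 of 8 higher and 2 of 8 lower, in a comparison where 16.1% of all tested genes were called higher and 32.7% lower at an adjusted p under 0.05. Apoe, Fabp5 and Gpnmb did not pass. The cells were grouped by other genes of the same libraries, so these p-values are not independent of the grouping.

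Trem2, the receptor, had the largest difference of the 8. In macrophage-like cells it ran between 226 and 517 CPM with a median of 295.5 CPM, and in fibroblast-like cells between 0 and 0.651 CPM with a median of 0.416 CPM. No library of either class came near the other. The log2 fold change was 9.68 ± 0.42 (SE, 6 libraries a class; edgeR adjusted p = 4.43e-14). A UMI of Trem2 was found in 203 of 453 macrophage-like cells, 44.8% (exact 95% interval 40.2% to 49.5%), against 61 of 37610 fibroblast-like cells, 0.162%, at median depths of 4011 and 3758 UMIs. In T cell-like cells, which should lack it, 0 of 966 had a UMI, which allows a share of up to 0.311%. In the same contrast all 9 genes of a TREM2 signalling list were called higher in macrophage-like cells, with a median log2 fold change of 8.90 against −0.44 over all tested genes. That contrast does not show whether they go with Trem2 among leukocyte-like classes, for which their levels are not given here. Tyrobp, the adaptor, averaged 1990 ± 372 CPM in macrophage-like cells and 1.2 ± 1.22 CPM in fibroblast-like cells (SD, n = 6 each), and Spi1, which encodes the transcription factor PU.1, averaged 473 ± 108 and 0.282 ± 0.370 CPM in the same order (adjusted p = 1.59e-14 and 2.99e-14, edgeR).

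Trem2 was also read in a class outside the leukocytes. In mesothelial-like cells, the lining cells of the heart's surface, it averaged 136 ± 80.3 CPM (SD, 5 libraries with at least 20 such cells) and ran between 67.1 and 271 CPM. That range overlaps the macrophage-like range of 226 to 517 CPM at its upper end and the range of 34.3 to 140 CPM in 4 libraries of monocyte- or neutrophil-like cells. Trem2 in mesothelial-like cells stood at 24.1% to 88.7% of its macrophage-like level in the same library over those 5, while the summed macrophage markers there stood at 0.196% to 0.817% of theirs. A Trem2 UMI was found in 568 of 1242 mesothelial-like cells, 45.7%, but these cells are deep, with a median of 7432 UMIs. After each cell was thinned to 1000 UMIs, leaving out 61 shallower mesothelial-like and 32 shallower macrophage-like cells, the share was 12.4% (10.5% to 14.4%) of mesothelial-like cells and 22.3% (18.4% to 26.6%) of macrophage-like cells. T cell-like, B cell-like, lymphatic endothelial-like and glial-like cells were at 0 in every library with at least 20 cells of the class.

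**Figure D1:**
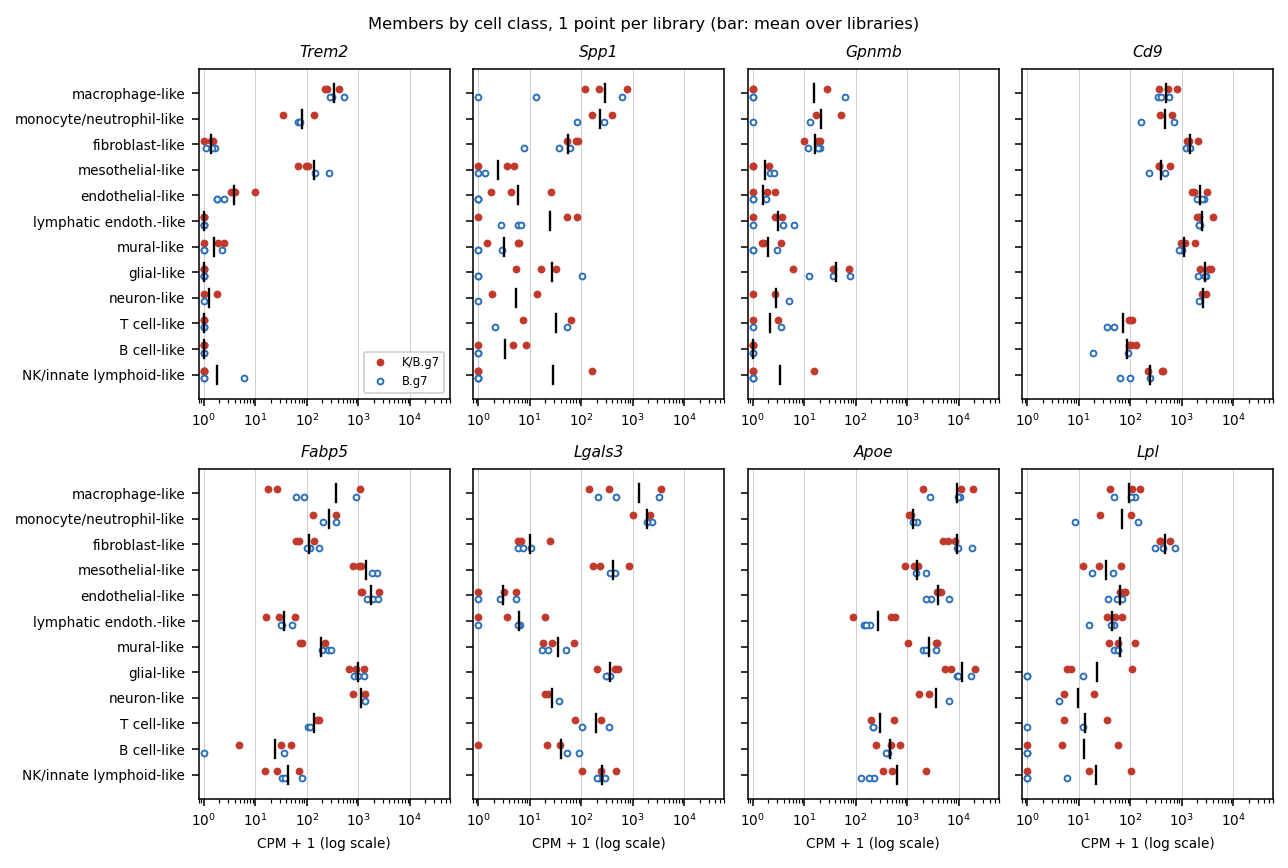
Level of each of the 8 genes (CPM plus 1, log axis) in 12 cell classes, 1 point per library with at least 20 cells of the class, K/B.g7 filled and B.g7 open, with a bar at the mean over libraries. Trem2 separates macrophage-like from fibroblast-like libraries completely, Lpl separates them in the other direction, and Apoe and Gpnmb overlap.

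Spp1 and Lgals3, both secreted, differed in how firmly they separated the classes. Lgals3 ran between 142 and 3551 CPM with a median of 407 CPM in macrophage-like cells, and between 4.8 and 23.8 CPM with a median of 6.17 CPM in fibroblast-like cells. The classes did not overlap, and the log2 fold change was 6.43 ± 0.43 (edgeR adjusted p = 6.37e-11). Spp1 ran between 0 and 754 CPM with a median of 169 CPM in macrophage-like cells, and between 6.69 and 86.5 CPM with a median of 56.3 CPM in fibroblast-like cells. Here the classes overlapped: the B.g7 macrophage-like cells of 3 and 25 weeks lay below most fibroblast-like libraries. Its log2 fold change of 2.01 ± 0.73 (edgeR adjusted p = 0.0281) was not called without the B.g7 library of 8 weeks, at 1.15 (adjusted p = 0.0609), nor by DESeq2 (1.25, adjusted p = 0.365). Monocyte- or neutrophil-like cells held both genes too, at 1866 ± 609 CPM for Lgals3 and 230 ± 138 CPM for Spp1 (SD, n = 4 libraries), overlapping the macrophage-like libraries for each.

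The order turned round for Lpl and Cd9. Lpl ran between 39.1 and 152 CPM with a median of 106 CPM in macrophage-like cells, and between 303 and 725 CPM with a median of 413 CPM in fibroblast-like cells. In the reported classes every fibroblast-like library lay above every macrophage-like one, and fibroblast-like cells had the highest mean of the 12 classes measured. The log2 fold change was −2.39 ± 0.23 (edgeR adjusted p = 1.45e-08). It was −1.35 (adjusted p = 1.5e-04) with the unnamed myeloid cluster led by Retnla, described below, added to the macrophage-like class. With the members clustered, where a cluster led by Retnla was named macrophage-like, it was −1.35 (adjusted p = 1.55e-04). At resolution 2.0 it was −1.36 (adjusted p = 1.44e-04). Cd9 ran between 345 and 797 CPM with a median of 465 CPM in macrophage-like cells, and between 1239 and 2076 CPM with a median of 1410 CPM in fibroblast-like cells, again with no overlap (log2 fold change −1.58 ± 0.22, edgeR adjusted p = 4.16e-06). Glial-like, neuron-like, lymphatic endothelial-like and endothelial-like cells held still more Cd9, with means of 2866, 2538, 2441 and 2247 CPM whose library ranges overlapped. Fibroblast RNA was read in macrophage-like cells too, and its part in their Lpl values was not tested: Lpl there stood at 10.6% of the fibroblast level in the K/B.g7 library of 8 weeks, where the summed fibroblast markers stood at 11.5%. In the other 5 libraries Lpl stood at 15.9% to 28.6% while the fibroblast markers stood at 3.71% to 7.84%.

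Apoe, Fabp5 and Gpnmb did not separate macrophage-like from fibroblast-like cells. Apoe averaged 9202 ± 6222 CPM in macrophage-like cells and 9429 ± 4593 CPM in fibroblast-like cells (SD, n = 6 each; log2 fold change −0.25 ± 0.33, edgeR adjusted p = 0.554). Glial-like cells, at 11514 ± 5966 CPM, overlapped both. Fabp5 averaged 368 ± 500 CPM in macrophage-like cells and 110 ± 41.9 CPM in fibroblast-like cells (log2 fold change 0.66 ± 0.71, adjusted p = 0.469), with the macrophage-like libraries lying on both sides of the fibroblast-like ones. Endothelial-like cells led for Fabp5 at 1782 ± 616 CPM, followed by mesothelial-like cells at 1418 ± 652 CPM in an overlapping range. As background, Fabp5 has near-identical processed copies elsewhere in the mouse genome, so its counts are uncertain as far as reads were split among them.

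Gpnmb was low in both classes, at 14.3 ± 24.6 CPM in macrophage-like cells and 15.5 ± 4.41 CPM in fibroblast-like cells (log2 fold change 0.30 ± 0.48, edgeR adjusted p = 0.640). Only the 8-week libraries had any Gpnmb in macrophage-like cells, 26.3 CPM in K/B.g7 and 59.7 CPM in B.g7 valves. The gene was high in one rare class: the 56 melanocyte-like cells of all libraries together held 2215 CPM, with no library reaching 20 such cells. GPNMB was named as a melanosomal protein and melanocyte-like cells were named from other pigment genes, so this level is given as a description. The same cells held 2009 CPM of Lgals3.

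Gene lists around the 8 members were counted in the same comparison, where 16.1% of all tested genes were higher and 32.7% lower. Of 18 other genes of lipid-associated macrophages, 14 were called higher and 4 lower in macrophage-like than in fibroblast-like cells (median log2 fold change 1.74, against −0.44 over all tested genes). Mmp12, the macrophage elastase, averaged 388 ± 453 CPM in macrophage-like and 0.455 ± 0.969 CPM in fibroblast-like cells, while Cd63, Ctsk, Anxa1 and Vat1 were the 4 lower ones, named after their values were seen. Of 17 genes of lipid uptake and storage 9 were higher and 2 lower, led by the scavenger receptors Msr1 (119 ± 40.7 against 0.202 ± 0.299 CPM) and Cd36 (95.4 ± 67.2 against 0.720 ± 0.523 CPM). Of 11 tested partners of lipoprotein lipase and lipoprotein receptors, 2 were higher and 6 lower. Among the lower ones were Lrp1, a large endocytic receptor for apolipoprotein E, at 117 ± 29.9 CPM in macrophage-like and 632 ± 128 CPM in fibroblast-like cells, and Angptl4, an inhibitor of lipoprotein lipase, at 0.125 ± 0.307 against 22.4 ± 5.02 CPM. Of 14 receptors for the secreted members and related galectins, 6 were higher and 4 lower. Cd44, an osteopontin receptor, averaged 168 ± 70.9 CPM in macrophage-like and 36.1 ± 11.5 CPM in fibroblast-like cells.

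Of the other macrophage lists, 11 of 12 resident macrophage genes and 10 of 12 tested inflammatory genes were called higher. Mrc1 and Pf4 of the resident list, Cd68 of the lysosome list and Mertk of the receptor list are also markers by which macrophage-like clusters were named. The counts of these lists are thus not independent of the naming. Of the lysosome and phagosome list 13 of 23 were higher and 3 lower, of cholesterol efflux and LXR genes 6 of 10 tested were higher and 1 lower, and of tetraspanins and their partners 3 of 9 were higher and 5 lower. Of 8 adipocyte genes 2 could be tested, and Car3 was lower in macrophage-like cells.

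The macrophage-like class was made of 3 clusters, described first by levels pooled over libraries. Cluster C1qa/Pf4, with 79 cells, was led by complement and Pf4 genes. It held the highest pooled levels of Trem2 at 479 CPM, Apoe at 12580 CPM and Lpl at 157 CPM. Cluster Il1b, with 164 cells and led by Il1b and Mmp12, held the highest Spp1 at 980 CPM, Fabp5 at 1234 CPM, Lgals3 at 4103 CPM and Cd9 at 852 CPM, beside the lowest Trem2 at 178 CPM and Apoe at 1031 CPM. Cluster C1qa/H2-Aa, with 210 cells, lay between them for these 6 genes, with Trem2 at 318 CPM, Spp1 at 203 CPM, Fabp5 at 501 CPM, Lgals3 at 1681 CPM, Apoe at 7095 CPM and Lpl at 61.9 CPM. Cells of a cluster are not replicates, and these levels carry no test. Cluster Il1b was the least firmly named of the 3. Its score on the macrophage marker list was 1.73, against 3.12 for cluster C1qa/H2-Aa and 3.89 for cluster C1qa/Pf4. Among its leading genes against cells outside the class, 1 was a macrophage marker and 1 a monocyte or neutrophil marker. The pooled levels lean on single libraries, since 132 of the 164 cells of cluster Il1b came from the K/B.g7 library of 8 weeks. In that library cluster Il1b held more Spp1, Fabp5, Lgals3 and Cd9 than cluster C1qa/H2-Aa, at 983 against 289 CPM, 1473 against 357 CPM, 4454 against 1770 CPM and 956 against 451 CPM. In the B.g7 library of 8 weeks, where cluster Il1b had 19 cells, Spp1 kept that order at 1191 against 108 CPM, Fabp5 had the opposite one at 467 against 1318 CPM, and Lgals3, at 3164 against 3283 CPM, and Cd9, at 566 against 572 CPM, were close. Trem2 was lower in cluster Il1b in both 8-week libraries, at 188 against 274 CPM in K/B.g7 and 162 against 429 CPM in B.g7 valves, and so was Apoe, at 828 against 4600 CPM and 1801 against 3591 CPM. An unnamed cluster of 44 cells led by Retnla held 669 CPM of Lpl and 27.9 CPM of Trem2, and it is counted in no class.

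**Figure D2:**
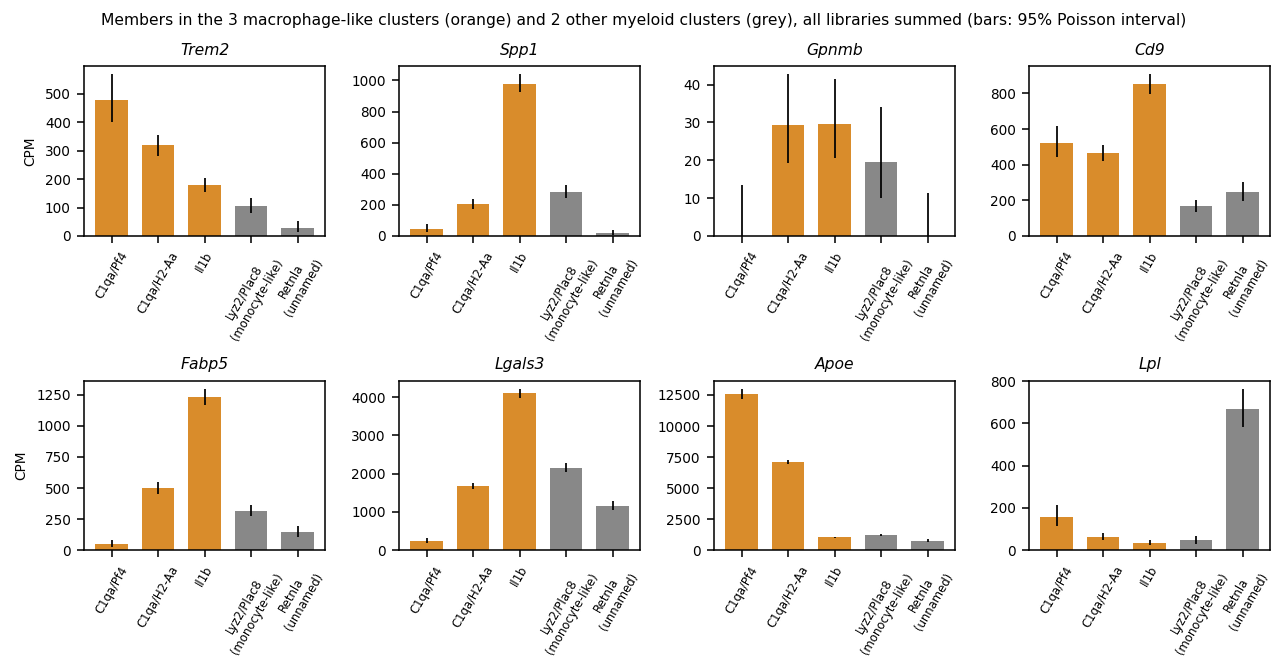
Bars give the level of each gene (CPM, all libraries summed) in the 3 macrophage-like clusters, in orange, and in the monocyte-like Lyz2/Plac8 and unnamed Retnla clusters, in grey, with exact 95% Poisson intervals that cover counting error only. Pooled this way, Spp1, Fabp5 and Lgals3 are highest in the Il1b cluster, of which 132 of 164 cells are from the K/B.g7 library of 8 weeks, and Trem2 and Apoe in the C1qa/Pf4 cluster; in the B.g7 library of 8 weeks Fabp5 was higher in the C1qa/H2-Aa than in the Il1b cluster.

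Those clusters filled the ages unevenly, and at 8 weeks the genotypes too. This bears on every comparison of ages or genotypes in the macrophage-like class. At 3 weeks cluster C1qa/Pf4 gave 34 of 48 macrophage-like cells in K/B.g7 and 17 of 23 in B.g7 valves. At 8 weeks it gave 6 and 2 cells, while cluster Il1b gave 132 and 19 and cluster C1qa/H2-Aa 72 and 36. At 25 weeks cluster C1qa/H2-Aa gave 41 cells in each genotype.

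At 8 weeks macrophage-like cells of both genotypes carried more Spp1, Fabp5 and Lgals3 than at 3 weeks and less Apoe, and at 25 weeks those 3 genes were lower and Apoe higher than at 8 weeks. The test was the edgeR quasi-likelihood test over 3136 genes with 2 libraries an age, 1 of each genotype. These contrasts were added after the levels had been seen. Against 3 weeks, 3 of 7 tested members were called higher at 8 weeks and 1 lower, where 7.37% of all tested genes were called higher and 4.08% lower. Against 8 weeks, 3 of 7 were called lower at 25 weeks and 2 higher, where 3.6% were called in each direction. Gpnmb was too low to be tested. Age and any handling that libraries of an age shared cannot be told apart.

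The 250 bases before the start of Spp1 and Lgals3, which were called together in both steps, are printed here beside those of Trem2, which was called in neither. They are from RefSeq on GRCm38.p6, 5′ to 3′ on the gene's strand, before the RefSeq start nearest to the GENCODE start. The Spp1 window ends at 104435110, short of the GENCODE start at 104435118. The Lgals3 window lies inside the GENCODE gene, which spans chr14:47367751-47386160, and not upstream of it. Capitals mark matches to the motifs searched on both strands.
Spp1 (chr5:104434861-104435110, plus strand): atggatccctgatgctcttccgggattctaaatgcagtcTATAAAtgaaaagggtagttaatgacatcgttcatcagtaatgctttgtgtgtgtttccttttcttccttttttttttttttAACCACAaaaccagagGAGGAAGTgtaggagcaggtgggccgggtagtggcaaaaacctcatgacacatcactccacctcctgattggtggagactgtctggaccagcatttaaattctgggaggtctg
Lgals3 (chr14:47373610-47373859, plus strand): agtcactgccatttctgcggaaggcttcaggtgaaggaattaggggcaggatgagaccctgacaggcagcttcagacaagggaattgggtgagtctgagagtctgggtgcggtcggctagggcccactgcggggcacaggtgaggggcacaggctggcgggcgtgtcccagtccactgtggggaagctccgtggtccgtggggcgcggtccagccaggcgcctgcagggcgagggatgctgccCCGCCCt
Trem2 (chr17:48346151-48346400, plus strand): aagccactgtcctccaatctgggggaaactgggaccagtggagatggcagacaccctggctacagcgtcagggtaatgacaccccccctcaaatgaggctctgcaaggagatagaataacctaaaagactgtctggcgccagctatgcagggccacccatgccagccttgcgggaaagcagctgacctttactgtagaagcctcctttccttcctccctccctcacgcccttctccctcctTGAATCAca
The Spp1 window holds TATAAA 211 bases before the start, the RUNX motif AACCACA 129 bases before it and the ETS or PU.1 motif GAGGAAGT 113 bases before it. The Lgals3 window holds the GC box GGGCGG on the other strand, 7 bases before the start. The Trem2 window holds TGAATCA 9 bases before the start, a match to the AP-1 search pattern TGANTCA, in which N allows any base. Of 32851 such windows of all genes, 12.4% hold TATAAA, 4.40% AACCACA, 2.44% GAGGAAGT, 32.7% GGGCGG and 6.75% TGANTCA. The E-box motifs CACGTG and CATGTG were searched as well and are found in 6.02% and 12.3% of all windows. These matches are letters in a window, not sites of binding.

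Lgals3 in macrophage-like cells stood at 142, 3551 and 339 CPM in K/B.g7 valves at 3, 8 and 25 weeks, and at 207, 3216 and 476 CPM in B.g7 valves. Both 8-week libraries lay far above the other 4, which lay together. The log2 fold change was 4.55 ± 0.34 for 8 against 3 weeks (edgeR adjusted p = 3.14e-05) and −3.02 ± 0.30 for 25 against 8 weeks (adjusted p = 2.51e-04). After thinning to 1000 UMIs a cell, 135 of 197 K/B.g7 cells (68.5%, exact 95% interval 61.5% to 74.9%) and 30 of 51 B.g7 cells (58.8%, 44.2% to 72.4%) of 8 weeks had a Lgals3 UMI, against 13.3% to 25.5% in the other 4 libraries. Unthinned shares were 86.7% and 78.9% at 8 weeks and 26.1% to 49.1% elsewhere.

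Fabp5 followed with 25.8, 1098 and 16.9 CPM in K/B.g7 valves at 3, 8 and 25 weeks, and 86.1, 919 and 62.1 CPM in B.g7 valves. Again only the 8-week libraries were high. Its log2 fold change was 4.69 ± 0.51 for 8 against 3 weeks (edgeR adjusted p = 1.67e-04) and −4.51 ± 0.47 for 25 against 8 weeks (adjusted p = 2.82e-04). Thinned shares were 24.4% and 25.5% at 8 weeks, against 0% to 9.52% in the other libraries.

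Spp1 stood at 219, 754 and 119 CPM in K/B.g7 valves at 3, 8 and 25 weeks, and at 0, 613 and 12.4 CPM in B.g7 valves. The 8-week libraries were highest in both genotypes, and the value of 0 at 3 weeks rests on 58051 UMIs, which allow up to 51.7 CPM. Few cells carried it outside 8 weeks: the 34 UMIs of the K/B.g7 library of 3 weeks came from 4 of 48 cells, and the 14 UMIs of that of 25 weeks from 5 of 58. The log2 fold change was 2.93 ± 0.64 for 8 against 3 weeks and −3.83 ± 0.66 for 25 against 8 weeks (edgeR adjusted p = 0.0121 and 0.00548). DESeq2 called neither (adjusted p = 0.0984 and 0.102). Without the K/B.g7 library of 8 weeks they were 5.57 and −6.02, and without the B.g7 library of 8 weeks 2.09 and −2.52. Without the K/B.g7 library of 3 weeks no Spp1 UMI is left at that age, so that the fitted value of that step is no measure of size.

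Apoe moved the other way, with 18970, 2035 and 10844 CPM in K/B.g7 valves at 3, 8 and 25 weeks, and 10715, 2771 and 9876 CPM in B.g7 valves. Both 8-week libraries lay below all others. Its log2 fold change was −2.39 ± 0.34 for 8 against 3 weeks (edgeR adjusted p = 9.13e-04) and 2.13 ± 0.33 for 25 against 8 weeks (adjusted p = 0.00316). Without the K/B.g7 library of 8 weeks neither was called, at −1.87 (adjusted p = 0.158) and 1.69 (adjusted p = 0.269), with the remaining 8-week library assumed to vary like the others.

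Lpl stood at 110, 39.1 and 152 CPM in K/B.g7 valves at 3, 8 and 25 weeks, and at 121, 48.2 and 103 CPM in B.g7 valves, with both 8-week libraries lowest. Its log2 fold change of 1.58 ± 0.38 for 25 against 8 weeks was called (edgeR adjusted p = 0.0296) but not by DESeq2 (1.56, adjusted p = 0.286), and that of −1.20 ± 0.43 for 8 against 3 weeks was not called (adjusted p = 0.100). Adding the Retnla cluster, which holds the most Lpl of the myeloid clusters, gave −1.95 for 8 against 3 weeks (adjusted p = 0.0125). Leaving out 1 of the K/B.g7 libraries of 8 or 25 weeks or the B.g7 library of 8 weeks gave 1.23 to 1.84 for 25 against 8 weeks, none called. Cd9, at 541, 797 and 356 CPM in K/B.g7 and 345, 567 and 389 CPM in B.g7 valves, and Trem2, at 425, 226 and 245 CPM in K/B.g7 and 517, 306 and 285 CPM in B.g7 valves, passed in neither step. The receptor thus stood apart in the fits from Spp1, Fabp5 and Lgals3, but the difference between these genes was not tested.

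**Figure D3:**
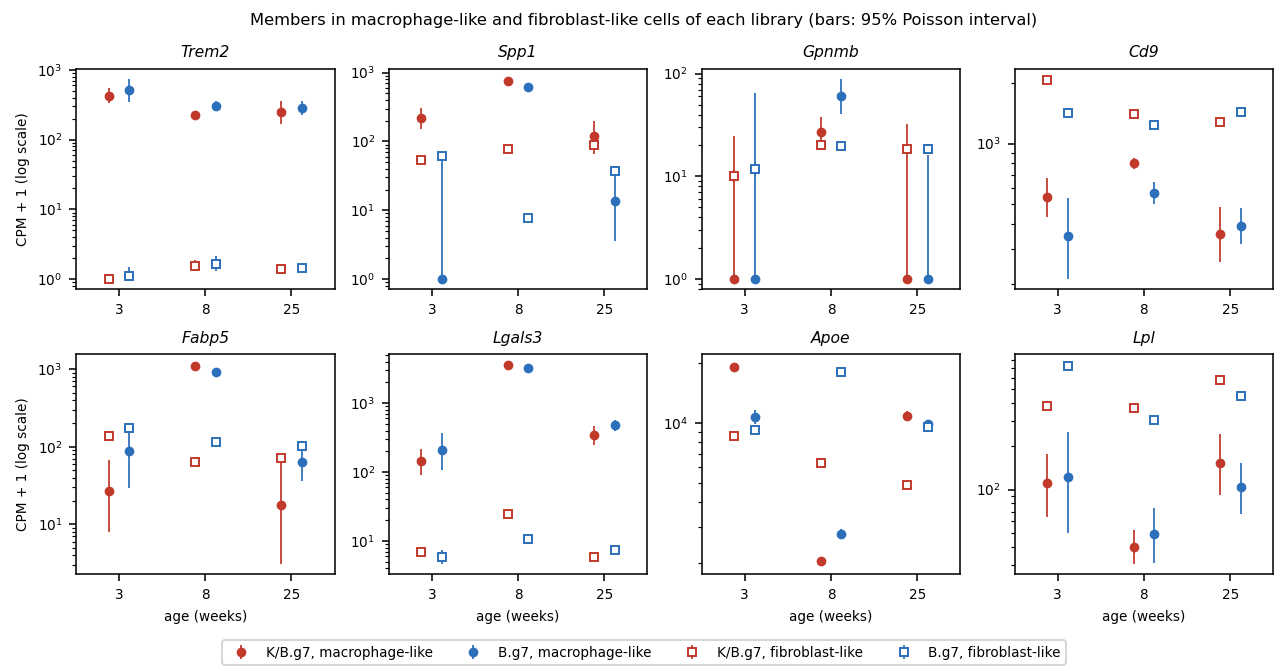
Level of each gene (CPM plus 1, log axis) by age in weeks, 1 point per library, in macrophage-like cells (filled circles) and fibroblast-like cells (open squares), K/B.g7 left of B.g7, with exact 95% Poisson intervals that cover counting error only. In macrophage-like cells Spp1, Fabp5 and Lgals3 are highest at 8 weeks in both genotypes while Apoe and Lpl are lowest there.

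The step between 8 and 25 weeks could be followed inside 1 cluster. In cluster C1qa/H2-Aa, which had at least 36 cells in each library of 8 and 25 weeks, Lgals3 stood at 1770 and 173 CPM in K/B.g7 valves at 8 and 25 weeks, and at 3283 and 376 CPM in B.g7 valves. Fabp5 stood at 357 and 24.8 CPM in K/B.g7 and at 1318 and 68.9 CPM in B.g7 valves at the same ages, and Apoe at 4600 and 12645 CPM in K/B.g7 and at 3591 and 11008 CPM in B.g7 valves. In a fit of this cluster alone, added after the levels had been seen, all 3 genes were called for 25 against 8 weeks, with log2 fold changes of −3.10 for Lgals3, −4.03 for Fabp5 and 1.65 for Apoe (edgeR adjusted p = 0.00354, 0.00390 and 0.0175). Spp1 and Lpl were not, at −1.39 (adjusted p = 0.235) and 0.86 (adjusted p = 0.492). Monocyte-like cells of the Lyz2/Plac8 cluster kept Lgals3 between 1257 and 2401 CPM at both ages.

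Other macrophage genes went with the members between 3 and 8 weeks. In this comparison 7.37% of all tested genes were called higher at 8 weeks and 4.08% lower. Of 14 tested genes of the lipid-associated list, 8 were higher at 8 weeks and none lower, with a median log2 fold change of 1.26 against 0.01 over all tested genes. Mmp12 averaged 965 CPM at 8 weeks and 58.0 CPM at 3 weeks (4.20 ± 0.40, edgeR adjusted p = 5.78e-05), and Itgax, the integrin CD11c, averaged 118 and 15.1 CPM (3.36 ± 0.63, adjusted p = 0.00490). All 10 tested resident macrophage genes were lower at 8 weeks, with a median of −4.16. Pf4 and Mrc1 of that list are also among the markers by which macrophage-like clusters were named. Pf4 averaged 363 CPM at 8 weeks and 3854 CPM at 3 weeks, and Mrc1, the mannose receptor, 108 and 825 CPM (−3.21 ± 0.30 and −2.71 ± 0.30, adjusted p = 5.78e-05 and 1.91e-04). Of 10 inflammatory genes 3 were higher (Ccr2, Ly6c2 and Plac8) and 3 lower (Ccl3, Ccl4 and Cxcl2). The scavenger receptor Cd36 was lower at 8 weeks, at 24.3 against 151 CPM (−2.31 ± 0.48, adjusted p = 0.00843), while in the TREM2 signalling list 1 of 7 tested genes was called, Cd33, lower. Of 17 lysosome genes 3 were higher and 1 lower. Between 8 and 25 weeks 8 of the 14 lipid-associated genes were lower and 7 of the 10 resident genes higher. In that step 3.6% of all tested genes were called in each direction. Genes singled out in this comparison were chosen after their values were seen, and several of them lead the 3 clusters.

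Single cells with UMIs of Trem2, Spp1 and Lgals3 together were mostly of 8 weeks. They numbered 38 of 210 macrophage-like cells in K/B.g7 and 7 of 57 in B.g7 valves at that age, against 2 of 48 and 1 of 58 in K/B.g7 valves and 0 of 23 and 2 of 57 in B.g7 valves at 3 and 25 weeks. Macrophage-like cells were also deeper at 8 weeks, with 1329788 UMIs in 210 K/B.g7 cells and 435300 in 57 B.g7 cells. At 3 weeks 48 K/B.g7 and 23 B.g7 cells held 155242 and 58051 UMIs. At 25 weeks 58 and 57 cells held 118133 and 241693 UMIs. Counts before thinning thus do not compare the ages at equal depth. Cells thinned to 1000 UMIs seldom held all 3 genes, with 3 of 197 in K/B.g7 and 1 of 51 in B.g7 valves at 8 weeks.

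Between 25 and 3 weeks no member was called in macrophage-like cells, where 1.59% of tested genes were. Lgals3 came closest, with a log2 fold change of 1.53 ± 0.35 (edgeR adjusted p = 0.0539), and 1.84 without the K/B.g7 library of 25 weeks. It was called with DESeq2 size factors (1.52, edgeR adjusted p = 0.0423), with doublets kept and with cells of at least 1000 UMIs. It was about 3 times smaller, and not called, with the members clustered, at resolution 2.0 and with the Retnla cluster added (0.50, 0.49 and 0.49, adjusted p = 0.664, 0.639 and 0.646).

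In fibroblast-like cells, against 3 weeks, 2 of 8 members were called higher at 8 weeks and none lower, where 3.0% of 14389 tested genes were called higher and 2.2% lower. Gpnmb stood at 9.12, 19.3 and 17.5 CPM in K/B.g7 valves at 3, 8 and 25 weeks, and at 10.7, 18.9 and 17.3 CPM in B.g7 valves. Both 3-week libraries were lowest (8 against 3 weeks 1.0 ± 0.18, edgeR adjusted p = 0.0224). Lgals3 stood at 5.90, 23.8 and 4.89 CPM in K/B.g7 and at 4.8, 9.82 and 6.44 CPM in B.g7 valves, highest at 8 weeks in each (1.64 ± 0.38, adjusted p = 0.0468). Both calls ended when 1 library was left out. Gpnmb was at 0.95 without either K/B.g7 library of 3 or 8 weeks (adjusted p = 0.101 and 0.0691). Lgals3 was at 1.65 and 1.63 without the K/B.g7 or the B.g7 library of 3 weeks (adjusted p = 0.180 and 0.0634), but at 0.88 without the K/B.g7 library of 8 weeks (adjusted p = 0.193). The fibroblast-like cells of the K/B.g7 library of 8 weeks also held the most macrophage marker RNA, 0.489% of the macrophage level. Lgals3 was still called higher at 8 weeks in fibroblast-like cells with no UMI of Ptprc, Tyrobp, Fcer1g, Lyz2, Cd74 or the C1q genes. The part of macrophage RNA in the size of the Lgals3 values was not tested. Trem2 was read in fibroblast-like cells with 0, 17 and 17 UMIs in K/B.g7 valves at 3, 8 and 25 weeks, and 1, 11 and 16 UMIs in B.g7 valves, and was not called for 8 against 3 weeks (edgeR adjusted p = 0.0718, and 0.0155 with no filter on low counts). Fabp5 was at −0.82 for 8 against 3 weeks (edgeR adjusted p = 0.0778), and at −1.07 without the B.g7 library of 3 weeks. It was called lower by DESeq2 (−0.83, adjusted p = 0.0126) and with no filter (edgeR adjusted p = 0.0191).

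Between 25 and 8 weeks no member was called in fibroblast-like cells, where 0.0903% of genes were. Lgals3 was at −1.51 ± 0.37 (edgeR adjusted p = 0.269, DESeq2 adjusted p = 0.0198), and at −2.12 without the B.g7 library of 8 weeks. It was called with no filter (edgeR adjusted p = 4.54e-05). The age values of Spp1 turned on the 8-week libraries. It was at −1.06 for 8 against 3 weeks and 0.89 for 25 against 8 weeks (edgeR adjusted p = 0.392 and 1.0). Without the K/B.g7 library of 8 weeks it stood at −2.75 and 2.75, and without the B.g7 library of 8 weeks at 0.16 and −0.16. Such fits keep 1 library of 8 weeks and hold no spread among libraries of that age. With no filter the first of the 2 steps was called lower (−1.03, edgeR adjusted p = 0.0256). Between 25 and 3 weeks none was called either, where 0.57% of genes were. Gpnmb was at 0.82 ± 0.18 (edgeR adjusted p = 0.0932), called without the K/B.g7 or the B.g7 library of 8 weeks (adjusted p = 0.0301 and 0.0323) and with no filter (0.00777), and Fabp5 at −0.87 ± 0.22 (adjusted p = 0.122, and 0.0121 by DESeq2).

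Genotype was compared over the 3 ages, with age as a block. In macrophage-like cells none of the 7 tested members was called, where 1 gene of 3136, 0.0319%, was; at an unadjusted p under 0.05 there were 103 higher and 65 lower genes, and DESeq2 called 0. Trem2 averaged 299 ± 110 CPM in K/B.g7 and 369 ± 128 CPM in B.g7 libraries (SD, n = 3 each; log2 fold change −0.37 ± 0.24, edgeR adjusted p = 0.994). Spp1 averaged 364 ± 342 CPM in K/B.g7 and 209 ± 351 CPM in B.g7 libraries (1.30 ± 0.55, adjusted p = 0.919). It was higher in the K/B.g7 library at all 3 ages, and without the 8-week libraries its log2 fold change was 3.73 (adjusted p = 0.0356), on 34 against 0 UMIs at 3 weeks and 14 against 3 UMIs at 25 weeks. Without the 3-week and the 25-week libraries it was 0.88 and 0.77, neither called. Lgals3, Fabp5, Apoe, Lpl and Cd9 had log2 fold changes between −0.39 and 0.28. Over the alternatives the value of Fabp5 ran from −2.0 to 0.047, never called. It rested on 4 K/B.g7 against 5 B.g7 UMIs at 3 weeks, 1460 against 400 at 8 weeks and 2 against 15 at 25 weeks. None of the tested companion genes of any list was called either.

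In fibroblast-like cells none of the 8 members was called for genotype, and of 14389 genes edgeR called 0 (0.0%), with 550 higher and 406 lower at an unadjusted p under 0.05 and 29 higher and 22 lower by DESeq2. Fabp5 stood at 135, 62.0 and 70.5 CPM in K/B.g7 valves at 3, 8 and 25 weeks, and at 175, 115 and 101 CPM in B.g7 valves. It was lower in the K/B.g7 library at every age, but the ranges overlapped and the test did not pass (−0.67 ± 0.18, edgeR adjusted p = 0.489). Apoe stood at 8571, 6304 and 4905 CPM in K/B.g7 and at 9244, 18058 and 9492 CPM in B.g7 valves. Apoe was lower in the K/B.g7 library at every age, at 0.927, 0.349 and 0.517 of the B.g7 level, but the test did not pass. Its log2 fold change was −0.93 ± 0.34 (edgeR adjusted p = 0.661), and −0.58 without the 8-week libraries. How many of all tested genes kept 1 order at every age was not counted. Spp1 stood at 53.0, 77.0 and 86.5 CPM in K/B.g7 and at 59.6, 6.69 and 36.1 CPM in B.g7 valves, with the B.g7 library of 8 weeks far below the other 5 (1.38 ± 0.56, adjusted p = 0.745). It was called with no filter on low counts (1.41, adjusted p = 3.44e-04), and was 0.50 without the 8-week and 2.23 without the 3-week libraries, neither called.

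The genotype effect on Apoe differed between the classes. The interaction term was 1.05 ± 0.20 on the log2 scale (edgeR adjusted p = 1.15e-04), 1 member of 8 called where 0.694% of 13254 genes were. Apoe in macrophage-like cells of K/B.g7 valves stood at 1.77, 0.735 and 1.10 of the B.g7 level at 3, 8 and 25 weeks, above the fibroblast-like ratio of 0.927, 0.349 and 0.517 at each age. At 8 weeks cluster Il1b, low in Apoe, gave 132 of 210 macrophage-like cells in K/B.g7 and 19 of 57 in B.g7 valves. Apoe at that age stood at 4600 CPM in K/B.g7 and 3591 CPM in B.g7 valves in cluster C1qa/H2-Aa, and at 828 and 1801 CPM in cluster Il1b. The part of this make-up in the interaction was not tested. The call of the Apoe interaction ended without the 3-week libraries (0.99, adjusted p = 0.0995) and without the 8-week libraries (0.98, adjusted p = 1.0). Spp1 had an interaction of −1.12 ± 0.32 (adjusted p = 0.0702), which was −2.13 without the 3-week and −1.67 without the 25-week libraries, both called, but 3.13 without the 8-week libraries and 1.07 by DESeq2, neither called. The edgeR fit had 2 residual degrees of freedom among libraries, and its estimate of the spread rested wholly on a trend over all genes. Its standard errors and p-values thus do not measure the spread of Apoe or Spp1 itself.

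**Figure D4:**
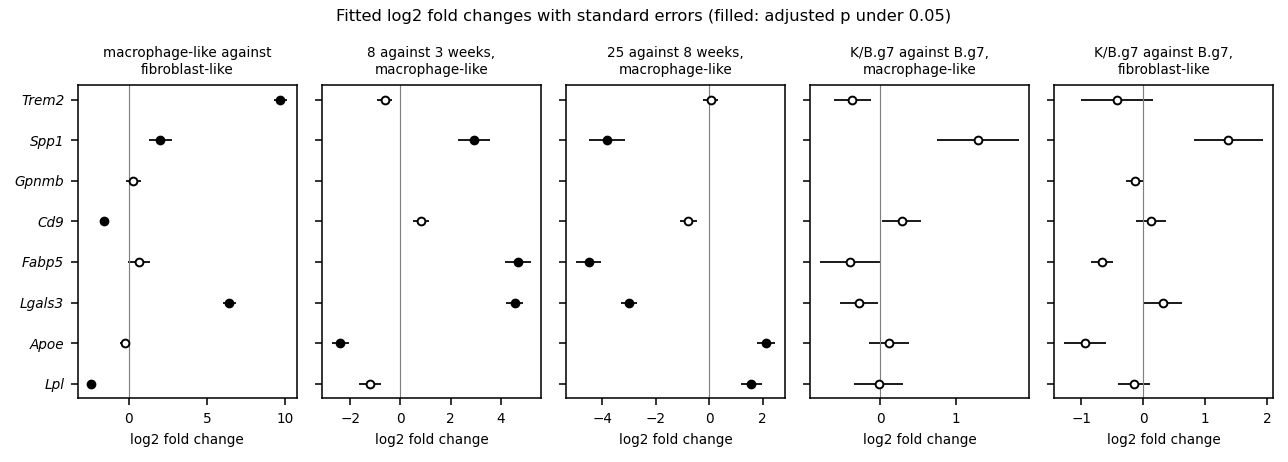
Log2 fold change with its standard error of each gene by edgeR, for macrophage-like against fibroblast-like cells, for 8 against 3 and 25 against 8 weeks in macrophage-like cells, and for K/B.g7 against B.g7 in each class, with filled points at an adjusted p under 0.05. The class and age contrasts have 5, 4 and 5 filled points, and the genotype contrasts have none; Gpnmb was tested in the class contrast and in fibroblast-like cells only.

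Among fibroblast-like clusters the members were spread unevenly. Spp1 was read mainly in 3 of them: the Chad cluster, led by the cartilage genes Chad, Fmod and Comp, at 369 CPM pooled, the Mmp3 cluster, led by Mmp3 and Lcn2, at 227 CPM, and the Cst6 cluster, led by Cst6, Thbs4 and Cilp, at 182 CPM, while the other 7 stood at 1.45 to 9.43 CPM. In the Chad cluster Spp1 stood at 335, 474 and 410 CPM in K/B.g7 valves at 3, 8 and 25 weeks, and at 916, 41.4 and 256 CPM in B.g7 valves, so the B.g7 libraries held both the highest and the lowest value. In the Cst6 cluster it stood at 289, 247 and 179 CPM in K/B.g7 and at 129, 131 and 124 CPM in B.g7 valves, higher in K/B.g7 at each age. The Mmp3 cluster was almost wholly 1 library: 498 of its 521 cells came from the K/B.g7 valve library of 8 weeks, and it held 67.2 CPM of Lgals3 against 2.43 to 17.0 CPM in the other clusters.

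Lpl and Apoe led in other clusters. Lpl was highest in the Lamb1 cluster, led by Lamb1, Col5a3 and Lpl itself, at 942 CPM, and lowest in the Mmp3 cluster at 57.4 CPM and in the Wif1 cluster at 137 CPM. Apoe was highest in the Igfbp3 cluster, led by Igfbp3 and Myoc, at 17196 CPM and in the Wif1 cluster at 15910 CPM, and lowest in the Cst6 cluster at 1156 CPM. The Igfbp3 cluster gave 1508 of 3604 fibroblast-like cells in the B.g7 library of 8 weeks and 809 of 6530 in the K/B.g7 library of that age. Its cells also differed within the cluster: Apoe stood at 25220, 11296 and 9099 CPM in K/B.g7 valves at 3, 8 and 25 weeks, and at 23350, 23397 and 15045 CPM in B.g7 valves. In the Lamb1 cluster the B.g7 library of 8 weeks held 26846 CPM of Apoe, against 7873 CPM in the K/B.g7 library of 8 weeks and 3626 to 6635 CPM in the other 4. Cd9 stood at 2191, 2054 and 2007 CPM in the Chad, Cst6 and Wif1 clusters, and at 916 to 1372 CPM in the other 7.

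**Figure D5:**
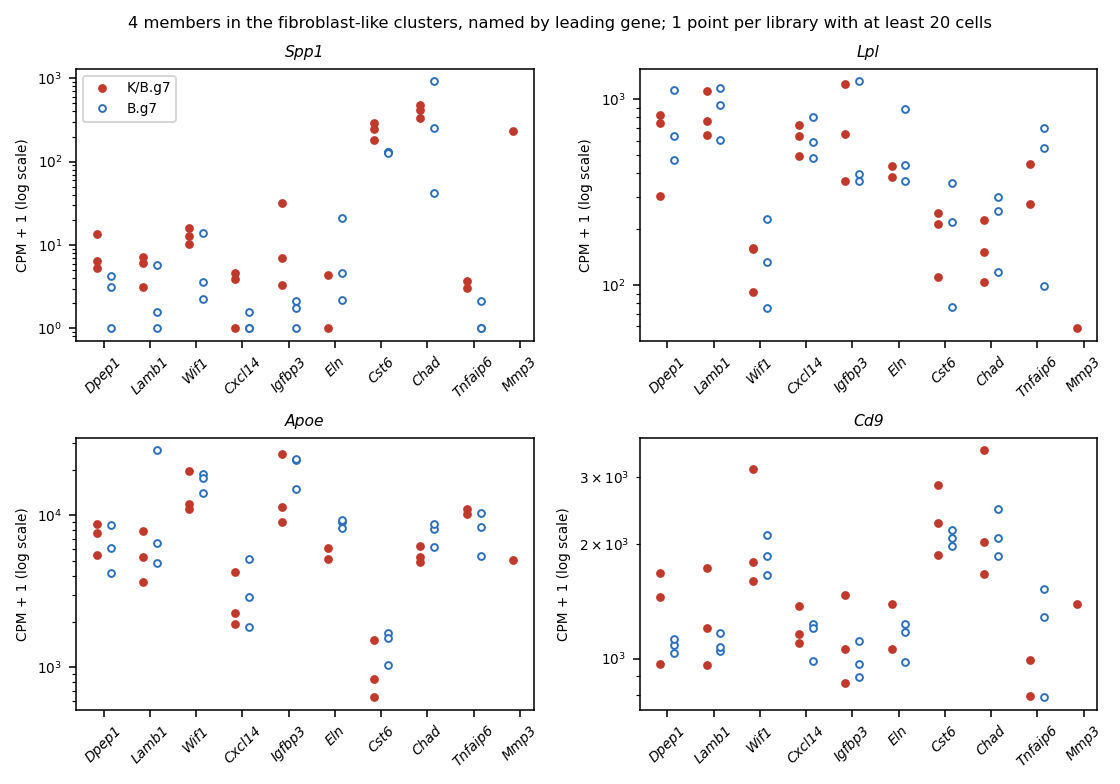
Level of Spp1, Lpl, Apoe and Cd9 (CPM plus 1, log axis) in the 10 fibroblast-like clusters, named by a leading gene, 1 point per library with at least 20 cells of the cluster, K/B.g7 filled and B.g7 open. Spp1 lies at or above 41.4 CPM in the Cst6, Chad and Mmp3 clusters alone, and Lpl and Apoe are highest in other clusters.

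The genes whose levels went most closely with each member over 65 class sums of 13 classes, among 11582 genes, are given as a description, since sums of a library share its depth and preparation. Trem2 went with Csf1r (Pearson r = 0.937), the receptor for macrophage colony-stimulating factor, then with Rbm47 (0.873) and Smpdl3b (0.868). Lgals3 went with Mbp (0.765), Gm2a (0.755) and Cd44 (0.701), and Spp1 with Chil1 (0.683). Lpl went with Cd302 (0.830), Rin2 (0.825) and Igf1 (0.8), Apoe with Cbr3 (0.811), Cd9 with Tppp3 (0.875), Fabp5 with Adgrg6 (0.755) and Gpnmb with 1700047M11Rik (0.693). Between the members themselves r ran from −0.377 for Cd9 with Lgals3 to 0.538 for Trem2 with Lgals3.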

How the data were processed

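Cells were captured in droplets with the single-cell 3′ chemistry of 10x Genomics, per the labels. The authors deposited whole-number UMI counts per gene and barcode from Cell Ranger 3.1.0 with mm10, per the submitters' processing notes. The members and gene lists were chosen with earlier results of these data known. Of 58351 barcodes, 53526 passed minima of 500 UMIs and 300 genes and a mitochondrial share of at most 10%, and predicted doublets, 114 to 3249 a library at an assumed rate of 0.8% per 1000 barcodes, were removed, because the caller's own threshold marked almost none. Cells were clustered with scanpy 1.11.5 and leidenalg 0.10.2 (2000 variable genes, 30 components, 15 neighbours, resolution 1.0) without the 8 members, and clusters were named from marker lists. Counts were summed per class and library where it had at least 20 cells.

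Sums were tested with edgeR 4.0.16 in R 4.3.3 (TMM factors, filterByExpr, quasi-likelihood test, Benjamini-Hochberg adjustment over all tested genes, threshold 0.05), and with DESeq2 1.42.0 as an alternative. The edgeR fits were tested on simulated data, and DESeq2 was not. Age was the block for genotype and library the block between classes. Libraries of the same age deviated together: correlations were 0.588, 0.488 and 0.208 in fibroblast-like and 0.529, 0.676 and 0.359 in macrophage-like cells at 3, 8 and 25 weeks, and the pairing comes from the labelled age. Intervals are exact 95% Poisson or binomial ones and, like the limit that a count of 0 allows (3 counts), cover counting error only. Fewer cells of a cluster and less RNA per cell cannot be told apart in a class sum.

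All 8 members are named; of each gene list, up to 3 genes of smallest p in the genotype and class fits may be named, and other genes were named after their values were seen. Genes most like a member are those of highest Pearson correlation of log2(CPM + 1) over class sums. Alternatives were size factors, filter, test, doublets, depth, clustering, classes and left-out libraries. Where 1 library of a compared age was left out, 1 library of that age remained. Calls and p-values of such a fit hold no spread among libraries of that age. Promoter windows were found for 6 of the 8 genes.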

Additional observations from a re-analysis of the deposited data

Results flagged for a closer look

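The effect of genotype on Apoe differed between macrophage-like and interstitial fibroblast-like cells by the interaction term of the edgeR fit, at 1.05 ± 0.20 on the log2 scale (adjusted p = 1.15e-04 over 13254 genes; DESeq2 0.99, adjusted p = 7.65e-05). K/B.g7 cells stood at 1.77, 0.735 and 1.10 of the B.g7 level at 3, 8 and 25 weeks in the macrophage-like class, and at 0.927, 0.349 and 0.517 in the fibroblast-like class, so the difference had the same direction at 3 of 3 ages. The genotype effect itself was called in neither class. The macrophage-like clusters, which differ in Apoe, made up unlike shares of the class in the 8-week libraries of the genotypes. The part of this in the interaction term was not tested. In the edgeR fit of the interaction the spread was taken wholly from a trend over all genes, not from Apoe itself. Without the 3-week libraries the term was 0.99 (adjusted p = 0.0995) and without the 8-week libraries 0.98 (adjusted p = 1.0), both not called.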

How the results depend on the processing

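Of 1127 values of members recomputed under the alternatives, 1000 kept their direction and side of the threshold, 75 changed sign with neither value called, 32 were called where the reported fit had no call and 20 lost the call; the cause was not tested. Trem2, Lgals3, Cd9 and Lpl between the classes, and Lgals3 and Fabp5 in macrophage-like cells for 8 against 3 and for 25 against 8 weeks, were called in the same direction under every alternative run. Numbers of called genes moved more. For genotype in macrophage-like cells the 1 call became 3 with DESeq2 size factors, 33 with no filter, 0 by DESeq2, 10 with doublets kept, 2 at resolution 2.0, 7 with shared barcodes left out, 2 without the Il1b cluster and 0 with no replicate block, and 0 to 30 when the 2 libraries of an age were left out. For genotype in fibroblast-like cells the 0 calls became 295 with no filter and 51 by DESeq2, and 0 to 57 with an age left out. For 25 against 3 weeks in macrophage-like cells the 50 calls became 80 with no filter, 15 with the members clustered, 23 at resolution 2.0 and 2 with the Retnla cluster added, and 29 to 182 with 1 library left out. The 82 calls in fibroblast-like cells became 1356 with no filter, 523 by DESeq2 and 169 in cells with no leukocyte UMI, and 17 to 993 with 1 library left out. The 92 interaction calls became 2 by DESeq2 and 1 to 99 with an age left out. For 8 against 3 weeks the 359 calls in macrophage-like cells became 176 by DESeq2 and 112 to 629 with 1 library left out, and the 748 in fibroblast-like cells became 2077 with no filter, 1139 by DESeq2 and 278 to 1223. For 25 against 8 weeks the 226 calls in macrophage-like cells became 84 by DESeq2, 61 in the C1qa/H2-Aa cluster alone and 34 to 401, and the 13 in fibroblast-like cells became 391 with no filter, 141 by DESeq2, 21 with cells of at least 1000 UMIs and 12 to 302. Between the classes 6475 genes were called with the replicate block and 6001 with no replicate block, where Fabp5 was called higher in macrophage-like cells (2.10, edgeR adjusted p = 0.0299); the block changed no other call of a member. Alternatives that added the Retnla cluster, left out shared barcodes, the Mmp3 or the Il1b cluster, or used 1 cluster alone were chosen after seeing the data. Depth limits the macrophage-like class most: its 23 cells of the B.g7 library of 3 weeks hold 58051 UMIs, so that 0 counts allow up to 51.7 CPM.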
